A study of Mus musculus with 12 samples.

Results

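The genes described are the 5 subunit genes of the transcription factor NF-kB (Nfkb1, Nfkb2, Rela, Relb and Rel) and 5 genes whose products restrain or modulate it in feedback (Nfkbia, Nfkbie, Nfkbiz, Bcl3 and Tnfaip3). They were chosen by name, as standard members of this group, with earlier results of these data known. They are 10 of the 53452 genes in the table, and all 10 were among the 16036 genes with enough counts to be tested. RNA sequencing was done on cells that the labels call HSCs, taken from the liver of wild-type mice and read here as hepatic stellate cells, the vitamin A-storing pericytes of the liver. Riociguat, a drug that stimulates soluble guanylate cyclase and so raises cyclic GMP, was compared with its solvent DMSO. There were 4 groups of 3 libraries: DMSO for 12 h, and riociguat for 6, 12 or 24 h.

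In all groups the cells were cultured for 12 h after isolation, the medium was then changed, and RNA was collected 24 h after that change. The compound or DMSO was added 12 h after the medium change in both 12 h groups. Riociguat was added 18 h after the change in the 6 h group and together with it in the 24 h group. Only riociguat 12 h and DMSO 12 h are therefore matched in time of addition. In the comparisons of riociguat 6 h and 24 h with DMSO, the compound and the time of addition cannot be told apart. Neither the dose nor the age or number of the mice is given in the sources used here. Since the labels do not tell whether the replicates of a group are different mice or different wells, a p-value covers just the variation among these libraries, some of which may be technical.

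As background, NF-kB is a set of dimers of Rel-family proteins that wait in the cytoplasm bound to inhibitor proteins. Signals from receptors for tumour necrosis factor, interleukin-1 or microbial products activate the IKK kinase complex, which marks the inhibitors for destruction and lets the dimers enter the nucleus. Several of the genes that the dimers switch on encode inhibitors of the pathway itself, so mRNA of these inhibitors is often followed as a sign of pathway activity. In stellate cells the pathway is known for chemokine production and for survival during activation.

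Library totals lay between 12953096 and 27358893 counts, and the members had from 217 counts (Bcl3) to 5610 counts (Nfkbia) in a library. Levels are given as CPM, that is, counts adjusted for library size with TMM factors. The 15 stellate cell markers were all tested and summed to between 3125 and 3193 CPM in the DMSO libraries, with Reln at 1367 ± 12.8 CPM, Pdgfrb at 238 ± 5.05 CPM, Des at 190 ± 17.3 CPM and Lrat at 4.81 ± 1.84 CPM (mean ± SD, n = 3). Markers of other liver cells were present as well, and their sums in DMSO were 1436 to 1534 CPM for endothelial cells, 1390 to 1465 CPM for hepatocytes 160 to 170 CPM for macrophages and 48.8 to 66.5 CPM for lymphocytes (7 of 15 markers tested). The defining neutrophil genes Ly6g and Elane had no count in any library, nor had Gzma among the lymphocyte markers. In such bulk RNA, fewer cells of a type and less RNA per cell cannot be told apart. A pair of libraries stood apart. DMSO replicate 1 differed from DMSO replicates 2 and 3 with a chi-square per degree of freedom of 12.3 and 16.0 over genes, where no other pair within a group was above 7.93. Without it 1262 genes in place of 907 were called at 12 h against DMSO. The sum over 12 interferon-stimulated genes was 284 CPM in riociguat 12 h replicate 3, while the other two libraries of its group had 134 and 132 CPM. The members' values without either library are given where they change a call.

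Levels of different genes were compared per length, as CPM per kilobase of the gene's merged exons, in the DMSO group. Nfkbia, which encodes the main inhibitor IkB-alpha, had the highest level at 133 CPM per kilobase. Rela, the p65 subunit that carries a transactivation domain, followed at 38.5, and Nfkb2, the precursor of p52, stood at 25.2 CPM per kilobase. Nfkbiz was at 18.3, Nfkb1 at 13.7, Relb at 13.5, Bcl3 at 9.65, Tnfaip3 at 9.52 and Nfkbie at 7.63 CPM per kilobase. Rel, the c-Rel subunit best known from lymphocytes, was the lowest at 2.82 CPM per kilobase. The neighbours Nfkb1 and Relb did not differ beyond their spread, nor did Bcl3 and Tnfaip3. The place of Nfkb1 depended on the length used: its merged exons span 12061 bases but its longest transcript only 4149, and with the latter its level was 39.9 CPM per kilobase and it ranked in place 3 instead of 5.

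**Figure D1:**
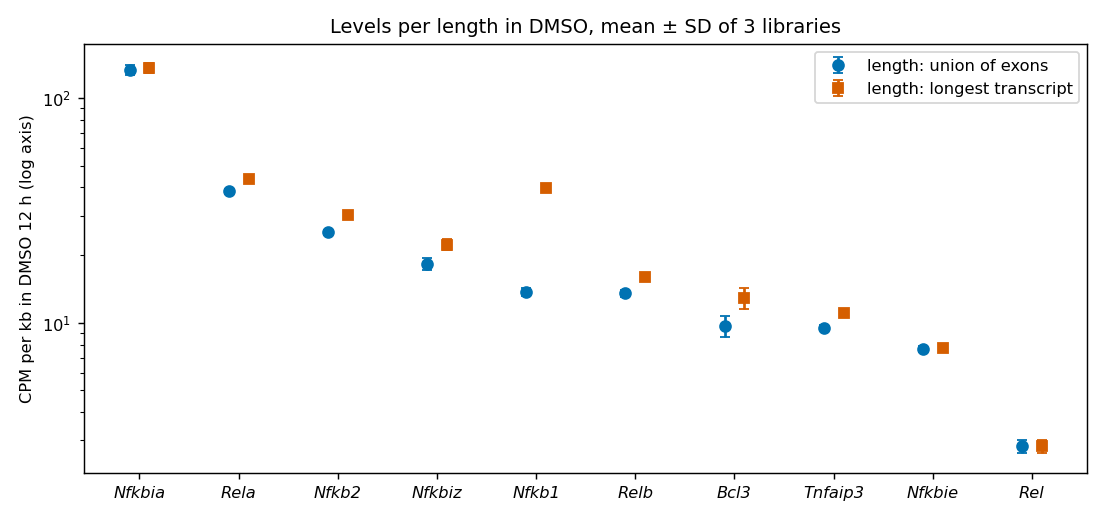
Levels of the 10 genes in DMSO 12 h as CPM per kilobase of merged exons, (circles) or of the longest transcript (squares), on a log axis, as mean ± SD (n = 3). On merged exons Nfkbia stands at 133 and Rel at 2.82, with the other genes between 7.63 and 38.5, and the 2 lengths differ most for Nfkb1.

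The upstream sequences of the members are shown because several of these genes are known NF-kB targets. RefSeq promoter windows (GRCm38.p6), of which the 250 bases before the start were searched, were matched for 7 of the 10 members; Nfkb1, Relb and Nfkbiz had no entry. A match to the kappaB consensus on either strand was found in 5 of the 7 (Nfkb2, Rel, Nfkbia, Nfkbie and Tnfaip3), against 2225 of 27025 genes overall (8.23%) and 14 of 31 genes of a list of NF-kB targets (45.2%). Rela and Bcl3 had no match in these windows. A match describes letters only. The 250 bases before the Nfkbia start (chr12:55492648-55492897, minus strand) and before the Nfkbie start (chr17:45555450-45555699, plus strand) are given 5′ to 3′ in the direction of transcription, with the match in capitals. It lies at bases -29 to -20 of Nfkbia and -106 to -97 of Nfkbie, counted back from the start.
Nfkbia: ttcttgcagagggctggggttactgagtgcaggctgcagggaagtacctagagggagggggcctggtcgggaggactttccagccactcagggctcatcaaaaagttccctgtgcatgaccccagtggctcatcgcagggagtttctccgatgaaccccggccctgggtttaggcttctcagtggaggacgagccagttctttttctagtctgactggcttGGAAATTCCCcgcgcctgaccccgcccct
Nfkbie: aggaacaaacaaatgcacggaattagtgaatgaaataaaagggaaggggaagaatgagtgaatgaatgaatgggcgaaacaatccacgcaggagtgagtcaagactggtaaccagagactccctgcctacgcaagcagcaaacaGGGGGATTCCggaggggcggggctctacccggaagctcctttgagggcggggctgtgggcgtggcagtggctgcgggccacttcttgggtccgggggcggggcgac

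For the other 3 genes with a match, only 30 bases that hold it are shown, with the match in capitals. Where matches on both strands overlapped, in Nfkb2 and in Rel, 1 of the overlapping pair is shown. Nfkb2 has 3 start sites in RefSeq, and its matches lie in 4 separate places, sites 1 and 2 before the first start and sites 3 and 4 before the others. Tnfaip3 held 2 matches, both before 1 of its 2 starts. All 250 searched bases of each Nfkb2 window lie inside the gene as annotated in GENCODE. The same holds for 247 of the 250 bases of the Tnfaip3 window with the matches. The Nfkbia and Nfkbie windows lie outside their genes, and that of Rel does so but for 1 base. The coordinates are chr19:46304688-46304717, chr19:46304707-46304736, chr19:46305449-46305478 and chr19:46305695-46305724 (plus strand) for Nfkb2, chr10:19015411-19015440 and chr10:19015516-19015545 (minus strand) for Tnfaip3, and chr11:23771042-23771071 (minus strand) for Rel.
Nfkb2 site 1: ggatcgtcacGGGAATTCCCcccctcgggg
Nfkb2 site 2: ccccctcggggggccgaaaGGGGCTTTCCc
Nfkb2 site 3: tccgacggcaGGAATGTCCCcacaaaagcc
Nfkb2 site 4: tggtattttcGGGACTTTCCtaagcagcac
Tnfaip3 site 1: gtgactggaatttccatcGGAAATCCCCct
Tnfaip3 site 2: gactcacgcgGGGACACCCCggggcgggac
Rel: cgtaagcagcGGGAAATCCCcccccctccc

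Against the DMSO libraries, most members fell after 6 h of riociguat, 1 fell after 12 h, and after 24 h some rose and others fell. A gene was called changed at an adjusted p under 0.05 (edgeR's quasi-likelihood test, two-sided, Benjamini-Hochberg adjustment over the 16036 genes). At 6 h, 7 of the 10 fell and none rose, where 9.72% of all tested genes changed, 5.24% lower and 4.48% higher. All 3 libraries at 6 h were below all DMSO libraries for 9 of 10 members, where 13.6% of tested genes had that pattern. At 12 h, the matched comparison, 1 of 10 fell (Tnfaip3) and none rose, where 3.48% of tested genes were lower and 5.66% changed in either direction, so the count is near the background. At 24 h, 2 rose and 2 fell, where 13.4% of tested genes changed, 5.94% higher and 7.41% lower. The libraries of Nfkb2, Rela, Relb and Tnfaip3 were all below DMSO at 12 h as well, 4 of 10 members where 11.9% of tested genes had that pattern, and only the Tnfaip3 difference was called. At 24 h the libraries of 5 members were all below DMSO (15.7% of tested genes) and those of 2 all above (12.6%). The median log2 fold change of the members was -0.36 at 6 h, -0.08 at 12 h and -0.06 at 24 h, while the median over all tested genes lay within 0.01 of 0 in each. The 3 comparisons share their DMSO libraries and are not independent of each other. In the test of any difference among the 4 groups, 8 of 10 members were called, where 18.3% of tested genes were, and Rela and Rel were not (adjusted p = 0.0890 and 0.194).

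**Figure D2:**
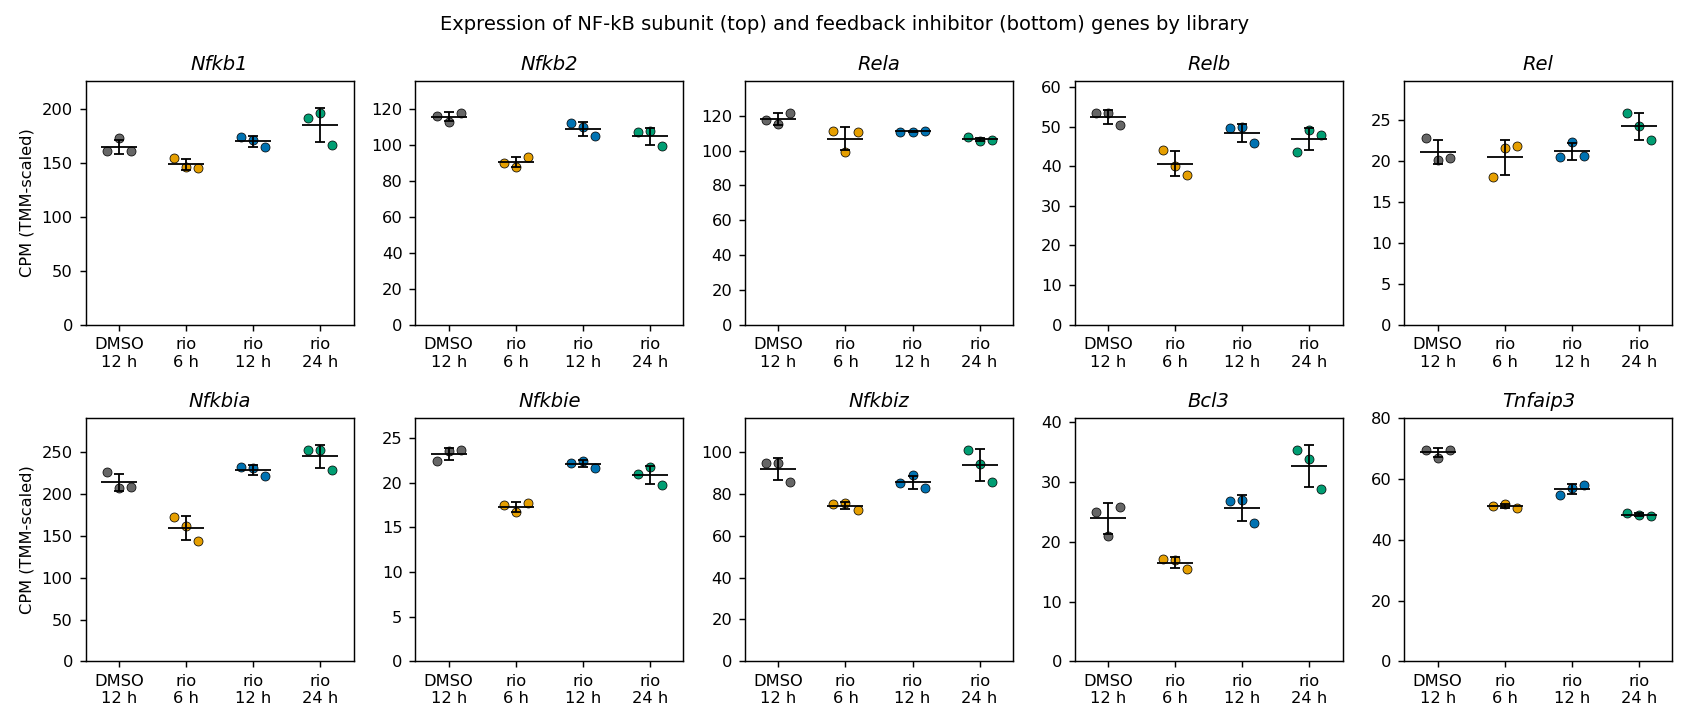
CPM of each of the 10 genes in the 12 libraries, 1 panel per gene with its own linear axis from 0, with each library as a point and the mean ± SD (n = 3) as a line and bar. The riociguat 6 h libraries lie below the DMSO libraries for every gene but Rel, and the libraries of Nfkb2, Rela, Relb and Tnfaip3 are below DMSO at all 3 times.

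Nfkb2 (ENSMUSG00000025225, chromosome 19, 46304320 to 46312385, plus strand, GRCm38) encodes p100, which is trimmed to p52 in the non-canonical branch of the pathway. Its level was 116, 113 and 118 CPM in the DMSO replicates and 90.2, 87.9 and 93.3 CPM after 6 h of riociguat. All 3 libraries at 6 h were below all DMSO libraries, a log2 fold change of -0.35 ± 0.05 (SE; edgeR adjusted p = 0.000118). At 12 h the replicates held 112, 110 and 105 CPM and at 24 h 107, 108 and 99.5 CPM. Neither was called against DMSO, and the edgeR adjusted p at 24 h was 0.0639. Nfkb2 overlaps exons of Psd by 299 bases and of AC114539.1 by 531 bases on the opposite strand, and how strand was handled in counting is unknown here, so part of its count could belong to these genes.

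Relb (ENSMUSG00000002983, chromosome 7, 19606217 to 19629438, minus strand) encodes the usual partner of p52. Its level was 53.5, 53.4 and 50.5 CPM in DMSO and 44.2, 40.1 and 37.7 CPM at 6 h. It fell by 0.37 ± 0.07 on the log2 scale (SE; edgeR adjusted p = 0.00207), and no 6 h library overlapped DMSO. After 12 h it was at 49.6, 49.9 and 45.8 CPM and after 24 h at 43.6, 49.1 and 47.9 CPM, neither called against DMSO. Nfkb2 and Relb, the pair of the non-canonical branch, were the 2 subunit genes of 5 called lower at 6 h. Rela (log2 fold change -0.15, edgeR adjusted p = 0.0702) and Nfkb1 (-0.15, adjusted p = 0.102) were not called. All their 6 h libraries were nevertheless below DMSO, and whether the subunits differ was not tested.

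Nfkb1 (ENSMUSG00000028163, chromosome 3, 135584655 to 135691547, minus strand) encodes p105, the precursor of p50. Its level was 162, 173 and 161 CPM in DMSO, 155, 147 and 145 CPM at 6 h, 174, 172 and 165 CPM at 12 h, and 192, 197 and 167 CPM at 24 h. No comparison with DMSO was called: the adjusted p was 0.102 at 6 h, where every library was below DMSO, and 0.0647 at 24 h, where replicate 3 lay within the DMSO range. Without that replicate Nfkb1 was called higher at 24 h (log2 fold change 0.24, edgeR adjusted p = 0.00547). Between the exposure times it was 0.32 higher at 24 h than at 6 h on the log2 scale (edgeR adjusted p = 0.000776).

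Rela (ENSMUSG00000024927, chromosome 19, 5637483 to 5648130, plus strand) encodes p65, the subunit behind most canonical NF-kB activity. It stood at 118, 115 and 122 CPM in DMSO, 111, 99.1 and 111 CPM at 6 h, 111 CPM in all 3 libraries at 12 h and 108, 106 and 106 CPM at 24 h. It was called lower at 24 h by a narrow margin (log2 fold change -0.15 ± 0.05, SE; edgeR adjusted p = 0.0483). That call was lost in 16 of 19 other settings, and the adjusted p was 0.0715 without DMSO replicate 1 and reached 0.222 without DMSO replicate 3. Rel (ENSMUSG00000020275, chromosome 11, 23736847 to 23770970, minus strand) was called in no comparison. Its group means were 21.1 ± 1.49 CPM in DMSO, 20.5 ± 2.14 at 6 h, 21.2 ± 1.04 at 12 h and 24.2 ± 1.66 CPM at 24 h (SD, n = 3), and 2 of the 3 libraries at 24 h exceeded all DMSO libraries. All 3 exceeded the 6 h and 12 h libraries.

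All 5 feedback genes were called lower at 6 h, with a median log2 fold change of -0.43. Of the 5 subunit genes 2 were called lower, and the median of all 5 was -0.15. Whether these 2 sets of genes differ was not tested. Nfkbia (ENSMUSG00000021025, chromosome 12, 55489410 to 55492647, minus strand) is induced by NF-kB and its protein carries the dimers back out of the nucleus. Its level was 226, 208 and 208 CPM in DMSO and 173, 161 and 144 CPM at 6 h, a log2 fold change of -0.43 ± 0.06 (SE; edgeR adjusted p = 0.000171) with no overlap. At 12 h it was 233, 232 and 222 CPM, which overlapped DMSO and was not called. At 24 h it was 253, 253 and 230 CPM, all above DMSO, and it rose by 0.20 ± 0.06 (SE; edgeR adjusted p = 0.0396). The rise at 24 h was not called without DMSO replicate 2 (adjusted p = 0.148) or 3 (0.112), riociguat 24 h replicate 1 (0.110) or 2 (0.0991), or riociguat 6 h replicate 2 (0.0503), in the same edgeR test.

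Nfkbie (ENSMUSG00000023947, chromosome 17, 45555703 to 45563169, plus strand) encodes IkB-epsilon, a second inducible inhibitor. It went from 22.5, 23.5 and 23.7 CPM in DMSO to 17.5, 16.7 and 17.7 CPM at 6 h. The fall was 0.42 ± 0.07 on the log2 scale (SE; edgeR adjusted p = 0.000947). At 12 h it was at 22.2, 22.5 and 21.7 CPM and at 24 h at 21.0, 21.8 and 19.8 CPM, neither called, although all 24 h libraries were below DMSO. Nfkbiz (ENSMUSG00000035356, chromosome 16, 55811375 to 55838899, minus strand) encodes IkB-zeta, a nuclear cofactor needed for some secondary target genes. It was at 94.7, 94.8 and 85.6 CPM in DMSO and 75.2, 75.6 and 72.3 CPM at 6 h, a fall of 0.30 ± 0.06 (SE; edgeR adjusted p = 0.00373). Its 12 h and 24 h libraries, at 82.7 to 88.7 CPM and 85.7 to 101 CPM, overlapped those of DMSO.

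Bcl3 (ENSMUSG00000053175, chromosome 7, 19808462 to 19822770, minus strand) encodes a nuclear IkB-like protein that works with p50 and p52 dimers. It moved in both directions. From 25.0, 20.9 and 25.8 CPM in DMSO it was at 17.1, 16.9 and 15.5 CPM at 6 h, the largest fall among the members (log2 fold change -0.54 ± 0.10, SE; edgeR adjusted p = 0.00230). At 12 h it was at 26.8, 26.9 and 23.1 CPM, which overlapped the DMSO libraries, and it was not called. At 24 h it was at 35.4, 33.8 and 28.7 CPM, all above DMSO, a rise of 0.45 ± 0.10 (SE; edgeR adjusted p = 0.00467). Both calls held in all 19 other settings. Bcl3 shares 161 bases of exon with Gm16175 on the opposite strand, so with strand handling unknown a part of its count is uncertain.

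Tnfaip3 (ENSMUSG00000019850, chromosome 10, 19000910 to 19015657, minus strand) encodes A20, a ubiquitin-editing enzyme that shuts down signalling upstream of IKK. It was the one member called lower against DMSO at all 3 exposure times; the libraries of Nfkb2, Rela and Relb were also below DMSO at all 3, by smaller amounts that were not all called. The DMSO libraries held 69.7, 66.9 and 69.7 CPM, and no riociguat library reached the lowest of them. The riociguat libraries held 51.1, 51.8 and 50.5 CPM at 6 h, 54.8, 57.2 and 58.1 CPM at 12 h, and 48.8, 48.1 and 47.9 CPM at 24 h. In the matched comparison at 12 h it fell by 0.28 ± 0.05 on the log2 scale (SE; edgeR adjusted p = 0.00183). It fell by 0.43 ± 0.05 at 6 h (adjusted p = 2.77e-05) and by 0.51 ± 0.05 at 24 h (adjusted p = 2.42e-06) in the same test. These calls held in all 19 other settings, and without the library with high interferon-stimulated genes the 12 h change was -0.29 (edgeR adjusted p = 0.00748). At 24 h Tnfaip3 was thus below DMSO while Nfkbia and Bcl3 were above it.

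**Figure D3:**
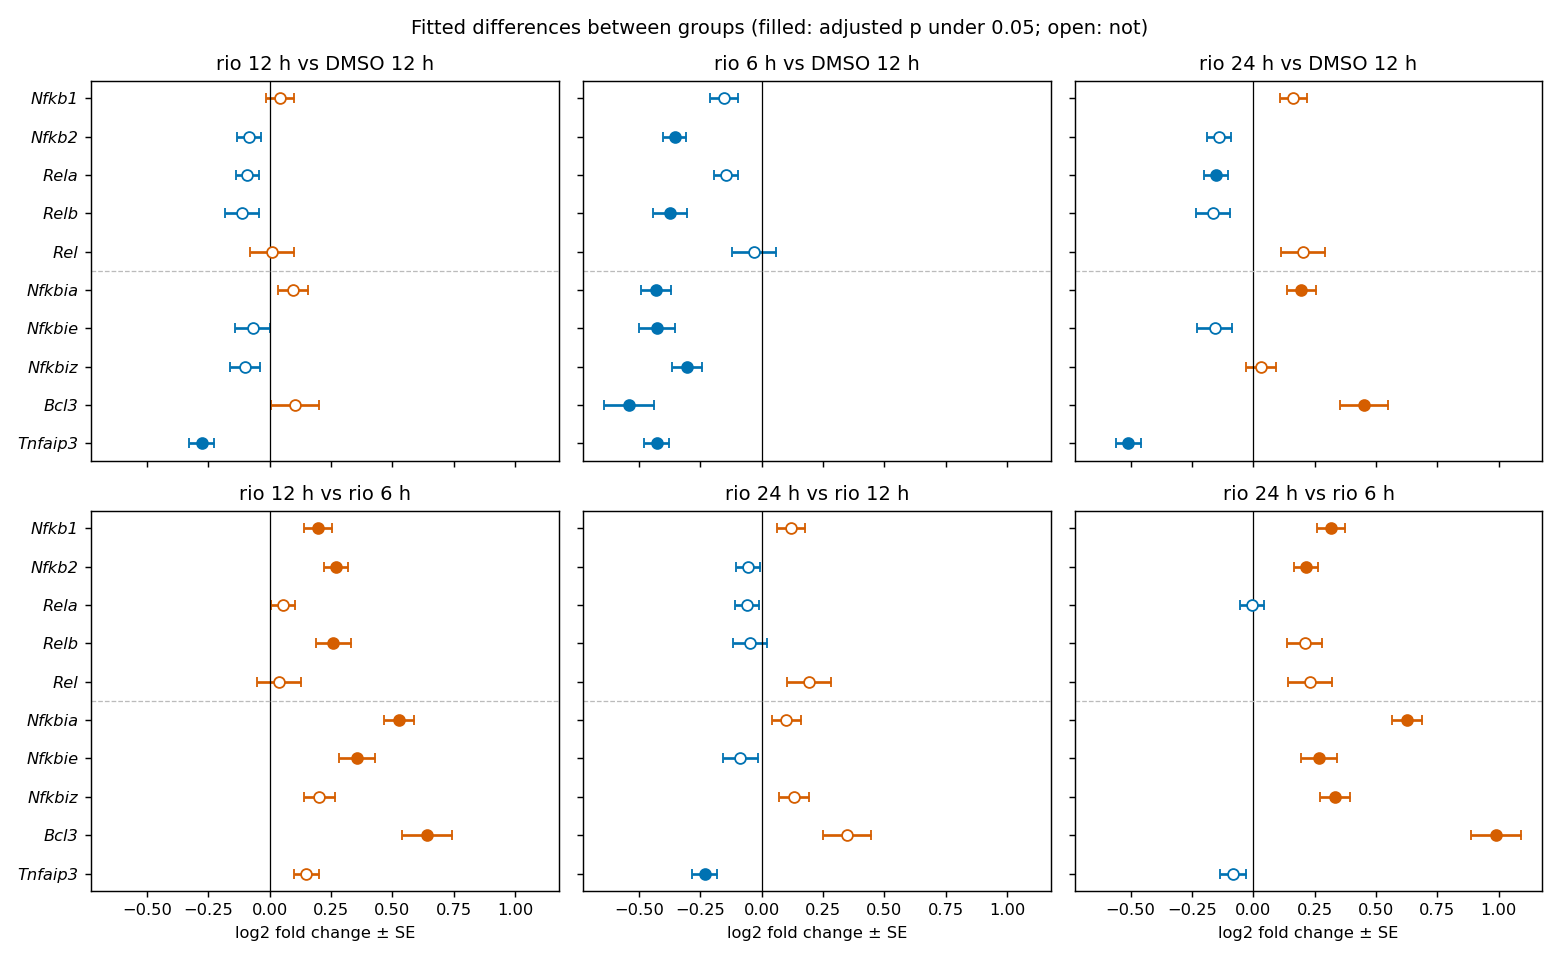
Log2 fold change with its SE as a bar, for each gene (rows) in the 6 comparisons (panels), from the edgeR fit, with filled points for adjusted p under 0.05 and open points otherwise. Against DMSO, at 6 h 7 genes are filled and below 0; at 12 h only Tnfaip3 is; at 24 h Bcl3 and Nfkbia are above and Tnfaip3 and Rela below.

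The exposure times were also compared with each other, which tests whether the changes at different times differ. From 6 h to 12 h, 6 members were higher and none lower, where 6.09% of tested genes changed and 2.57% were higher. They were Bcl3 (0.64), Nfkbia (0.53), Nfkbie (0.35), Nfkb2 (0.27), Relb (0.26) and Nfkb1 (0.20), as log2 fold changes. Relb was not called, with an edgeR adjusted p of up to 0.200, when any 1 of these libraries was left out: DMSO replicate 2, replicates 2 and 3 at 6 h, and replicates 1 and 2 at 12 h. The Nfkb1 call was lost without any 1 of the 6 h or 12 h libraries or DMSO replicate 2 or 3, with an adjusted p of up to 0.185. Tnfaip3 was not called between 6 h and 12 h (0.15, adjusted p = 0.109). From 12 h to 24 h only Tnfaip3 was called (-0.23 ± 0.05, SE; edgeR adjusted p = 0.0161), where 3.08% of tested genes changed and 1.71% were lower. That call was lost without riociguat 12 h replicate 2 (adjusted p = 0.0784) or 3 (0.0972) and without riociguat 24 h replicate 2 (0.0567) or 3 (0.0702). From 6 h to 24 h, 6 members were higher, where 15.3% of tested genes changed and 7.16% were higher, with Bcl3 at 0.99 ± 0.10 (SE; edgeR adjusted p = 2.42e-06) and Nfkbia at 0.63 the furthest apart. Nfkbie was 0.27 higher, and its edgeR adjusted p was 0.0725 without riociguat 6 h replicate 2 and 0.0621 without riociguat 24 h replicate 2.

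Ratios between members within a library do not depend on the scaling of the libraries. They carry no correction for gene length, so only their differences between groups can be read. The ratio of Nfkbia to Tnfaip3 counts was 3.25, 3.11 and 2.99 in DMSO and 3.38, 3.12 and 2.85 at 6 h, when both genes fell. It was 4.25, 4.05 and 3.82 at 12 h and 5.19, 5.27 and 4.79 at 24 h. The 12 h libraries were thus above all DMSO and 6 h libraries, and the 24 h libraries above all others. The ratio of Bcl3 to Tnfaip3 had means of 0.347, 0.322, 0.452 and 0.675 in the same order of groups. Among the subunits, the ratio of Nfkb2 to Rela was 0.979 ± 0.00855 in DMSO and 0.847 ± 0.0377 at 6 h (SD, n = 3), and 0.983 and 0.986 at 12 h and 24 h. The ratio of Nfkb1 to Nfkb2 was 1.43 ± 0.0874 in DMSO, 1.65 ± 0.0797 at 6 h, 1.56 ± 0.00963 at 12 h and 1.76 ± 0.0730 at 24 h. Every riociguat library was above all DMSO libraries in this ratio. No test was made on these ratios.

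**Figure D4:**
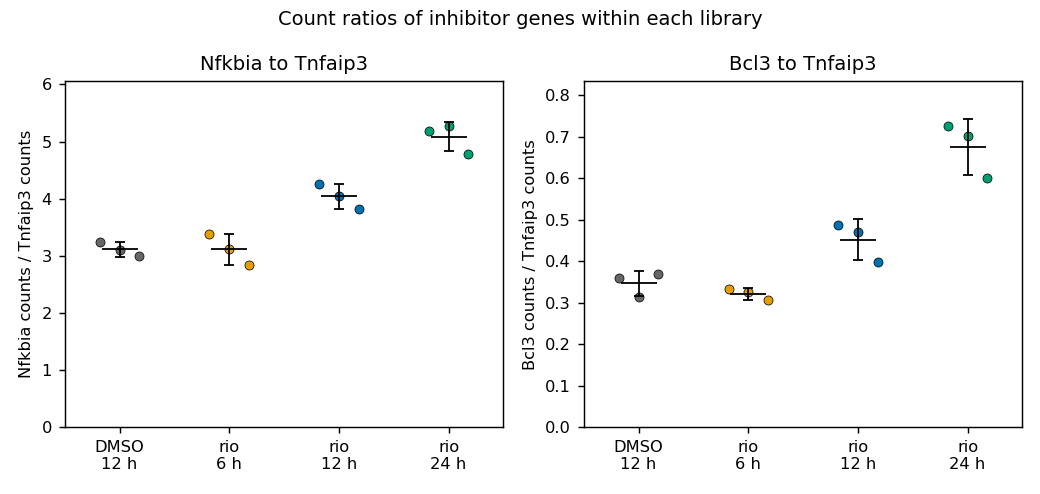
Ratio of Nfkbia to Tnfaip3 counts (left) and of Bcl3 to Tnfaip3 counts (right) within each of the 12 libraries, with each library as a point and the mean ± SD (n = 3) as a line and bar. The mean Nfkbia to Tnfaip3 ratio is 3.12 in DMSO, 3.11 at 6 h, 4.04 at 12 h and 5.08 at 24 h.

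The other genes of the pathway were followed as lists. Of 18 other inhibitors, all tested, 3 were lower and 2 higher at 6 h, where 5.24% of tested genes were lower and 4.48% higher. At 12 h 1 was lower (3.48% of tested genes), and at 24 h none was called (13.4%). Tnip1, which encodes a partner of A20, went from 128 ± 2.82 CPM in DMSO to 85.8 ± 1.03 CPM at 6 h (log2 fold change -0.58; edgeR adjusted p = 1.23e-06), and Zc3h12a, an RNase that degrades cytokine mRNA, from 84.8 ± 5.83 to 55.4 ± 2.21 CPM (-0.62; adjusted p = 3.30e-06, SD, n = 3). In the 12 h group both were near DMSO (log2 fold changes of -0.03 and -0.08, not called). Pdlim2, an E3 ligase for nuclear p65, was lower at 6 h (-0.51) and at 12 h (-0.34), the latter a call that was lost in 14 of 19 other settings. Cyld, a deubiquitinase, was higher at 6 h (0.27), with an edgeR adjusted p of 0.0933 without DMSO replicate 2, 0.0672 without DMSO replicate 3, and 0.0772 and 0.0713 without riociguat 6 h replicate 2 or 3. Among the 4 inhibitors named, which were picked by the smallest p among groups, 3 fell at 6 h and Cyld rose. Over all 18 the median log2 fold change at 6 h was 0.10, so the list as a whole was not lower.

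Of the 32 IKK complex, kinase and adaptor genes, 1 was higher and 2 lower at 6 h, where 9.72% of tested genes changed. At 12 h 1 was higher and 1 lower (5.66% of tested genes), and at 24 h 1 higher and 2 lower (13.4%). These counts are near or below the background. Ikbkg, which encodes the IKK scaffold NEMO, was higher in every riociguat library at 6 h, at 133 to 134 CPM against 99.0 to 101 CPM in DMSO (log2 fold change 0.42; edgeR adjusted p = 3.98e-06), and was also higher at 12 h (0.23). Map3k14, the NIK kinase of the non-canonical branch, was lower at 24 h (-0.49; edgeR adjusted p = 0.00144), with values of -0.09 at 6 h and -0.23 at 12 h that were not called. Birc3, an E3 ligase, was lower at 6 h (-0.33), and Irak2, an interleukin-1 receptor kinase, at 24 h (-0.29). Irak2 was not called in the edgeR test when DMSO replicate 3 (adjusted p = 0.102) or riociguat 24 h replicate 1 (0.120) or 2 (0.0626) was left out.

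Of 19 receptor genes tested, 2 were called at 6 h (both higher), where 9.72% of all tested genes changed. At 12 h 4 were called (2 higher, 2 lower), where 5.66% changed. At 24 h it was 5 (3 higher, 2 lower), where 13.4% changed. Il1rl1, the receptor for interleukin-33, was at 31.8 ± 1.05 CPM in DMSO and 77.9 ± 8.39 CPM at 24 h (SD, n = 3; log2 fold change 1.30, edgeR adjusted p = 4.26e-08). Il33 itself went from 12.8 ± 1.37 to 26.8 ± 5.07 CPM (1.07; edgeR adjusted p = 2.72e-05). Receptor and ligand of this pair were thus both higher at 24 h. Il1r1 (0.45) and Tnfrsf1a (0.35), receptors for interleukin-1 and tumour necrosis factor, were higher at 24 h, and Tnfrsf12a, the receptor for TWEAK, was lower (-0.32). These genes were also called in the matched comparison at 12 h. The changes were 0.22 for Il1r1, 0.22 for Tnfrsf1a and -0.26 for Tnfrsf12a (edgeR adjusted p = 0.0160, 0.00712 and 0.00537). The 12 h call was lost in 4 other settings for Il1r1 and in 2 for Tnfrsf12a. Of 12 ligand genes 6 were tested, and Il33 at 24 h was the one call against DMSO. Tnf was low in all groups, with 1.16 to 3.70 CPM, and was not called in any comparison.

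The list of NF-kB targets held 42 genes, of which 40 were tested. Birc3, Traf1, Map3k8 and Tnip1 also stand in a list above. At 6 h, 11 were lower and 4 higher, at 12 h 4 lower and 6 higher, and at 24 h 8 lower and 12 higher. Of all tested genes 9.72%, 5.66% and 13.4% changed at these times. The medians of the targets were -0.07, 0.02 and 0.04, against all-gene medians within 0.01 of 0. Of the 11 that were lower at 6 h, 7 were higher at 12 h than at 6 h. Both comparisons use the same 6 h libraries, so picking genes low in them favours this pattern. The share of all tested genes with both calls is not given. It is at most 2.57%, the share called higher at 12 h than at 6 h. Among the genes called lower at 6 h the share is not known here. Ccl2 and Ccl7, chemokines that recruit monocytes, had this pattern: Ccl2 was at 244 ± 19.2 CPM in DMSO, 113 ± 13.9 at 6 h, 227 ± 17.2 at 12 h and 223 ± 25.2 CPM at 24 h (SD, n = 3), with log2 fold changes against DMSO of -1.12, -0.11 and -0.13. Ccl7 changed by -0.97 at 6 h and was not called later. Among the members, Nfkb2, Relb, Nfkbia, Nfkbie and Bcl3 were likewise called lower at 6 h than in DMSO and higher at 12 h than at 6 h. Here too both comparisons use the same 6 h libraries, and the share of all tested genes with both calls is known only to be at most 2.57%.

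Other targets did not have that pattern. Mmp3, a matrix protease, was at 446 ± 6.47 CPM in DMSO, 650 ± 14.2 at 6 h, 451 ± 10.4 at 12 h and 649 ± 10.2 CPM at 24 h (SD, n = 3), so it was 0.54 higher on the log2 scale at 6 h and at 24 h and not called at 12 h. Ier3, an early response gene, rose at 12 h (0.36) and 24 h (0.57). Il6, picked after its values were seen, was higher at all 3 times, by 1.31, 1.53 and 1.32 on the log2 scale (edgeR adjusted p = 0.00989, 0.00345 and 0.00662). Leaving out 1 library gave Il6 values of 1.07 to 1.90 at 6 h, 1.31 to 2.12 at 12 h and 1.10 to 1.91 at 24 h. At 6 h its adjusted p was 0.0583 when DMSO replicate 2 was left out and 0.0503 when DMSO replicate 3 was. Csf1 and Bcl2l1, likewise picked after their values were seen, were the 2 targets lower at all 3 times, as Tnfaip3 was. For Bcl2l1 the edgeR adjusted p was 0.0507 at 12 h without riociguat 12 h replicate 2, and 0.0586 at 6 h without riociguat 6 h replicate 2.

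**Figure D5:**
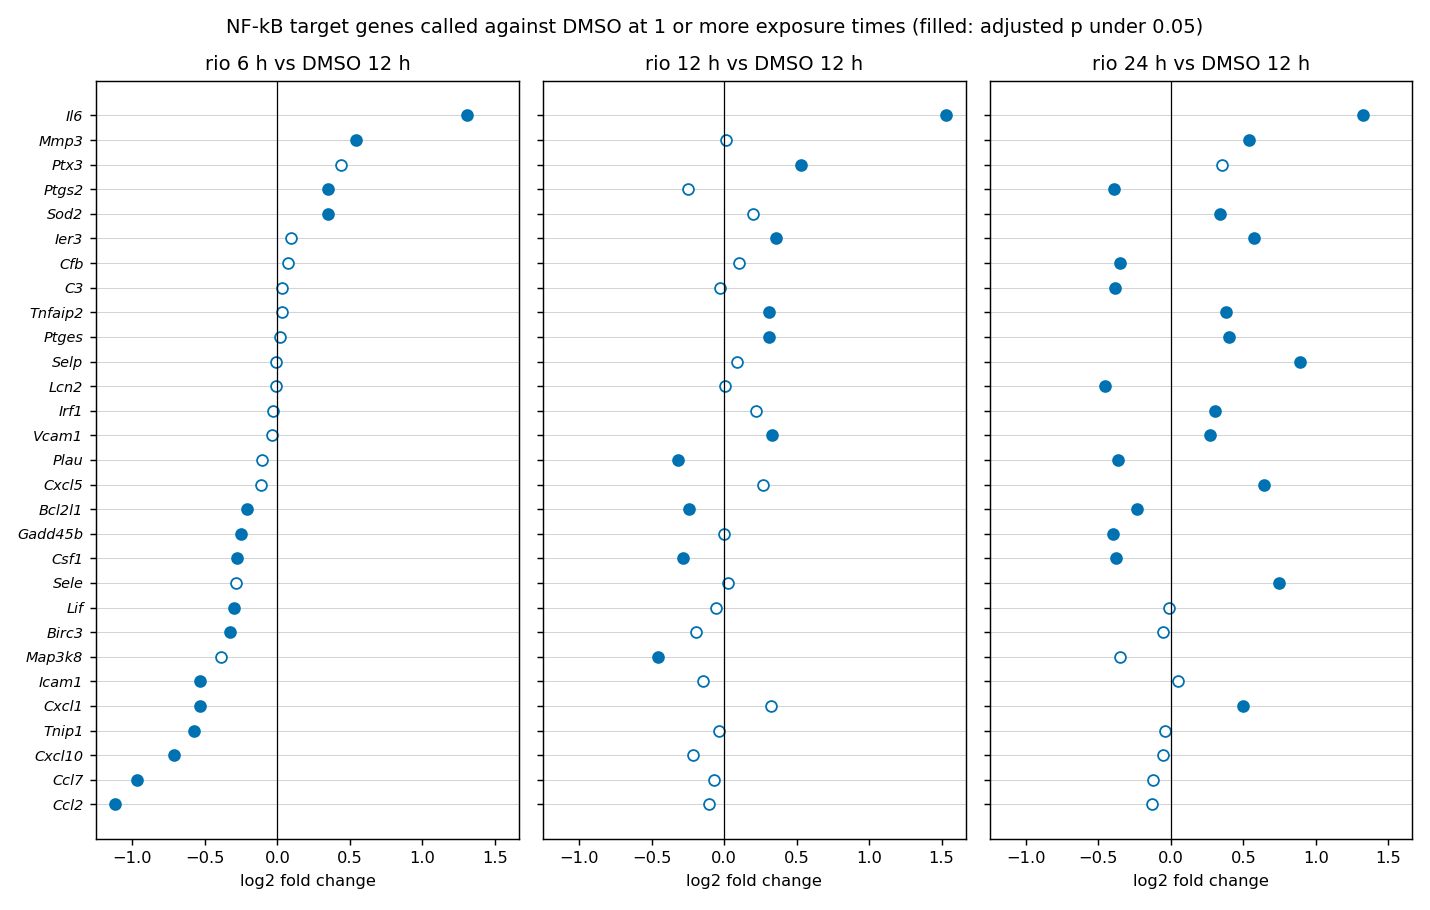
Log2 fold change against DMSO 12 h after 6, 12 and 24 h of riociguat (edgeR fit) for the 29 of 40 tested NF-kB targets called at 1 time or more, with filled points for adjusted p under 0.05. Ccl2 is at -1.12 at 6 h and -0.11 at 12 h, while Il6 is at 1.31 or above at all 3 times.

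For the 3 members with the smallest p in the test among groups, the genes with the most similar profile were sought among 10731 genes, as the mean absolute difference between log2 CPM centred on each gene's mean over the 12 libraries. The nearest to Tnfaip3 were Spsb1 (0.050), Timp2 (0.056) and Tgm2 (0.064), where the median gene differed by 0.190. The nearest to Nfkbia were Olfml3 (0.061), Gfpt2 (0.062) and Smad3 (0.065), with a median of 0.226. The nearest to Bcl3 were Ccna2 (0.087), Adora2b (0.092) and Rdh10 (0.111), with a median of 0.319. These are descriptions over libraries that share their groups.

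The 15 stellate cell markers summed to 3125 to 3193 CPM in DMSO, 3293 to 3393 at 6 h, 3309 to 3435 at 12 h and 3440 to 3687 CPM at 24 h. Of them 1 was called higher and none lower at 6 h, where their median log2 fold change was -0.08. At 12 h 2 were higher and 2 lower, and at 24 h 7 were higher and 2 lower. Markers of other cells moved with some of the members' values. The summed macrophage markers were 160 to 170 CPM in DMSO, 141 to 147 at 6 h, 155 to 182 at 12 h and 171 to 191 CPM at 24 h, so they were low at 6 h as the members were. Of the 15 tested macrophage markers of 16, 1 was lower at 6 h and none higher. Their median log2 fold change was -0.23 at 6 h against DMSO, where that of the members was -0.36. It was 0.34 from 6 h to 12 h and 0.31 from 6 h to 24 h, where those of the members were 0.23 and 0.25. Ptprc, the pan-leukocyte gene, was at 1.26 to 4.69 CPM in all libraries. Portal fibroblast and mesothelial markers were also lower at 6 h, at 403 to 442 CPM against 500 to 580 CPM in DMSO, with 1 of 10 called lower and 1 higher. Endothelial markers went the other way, at 1704 to 1785 CPM at 6 h (3 of 15 higher) and 1234 to 1328 CPM at 24 h (6 lower and 2 higher). Hepatocyte markers summed to 1167 to 1335 CPM at 6 h, below the 1390 to 1465 CPM of DMSO. Their median log2 fold change at 6 h was -0.20, with no marker called. At 24 h they summed to 656 to 931 CPM, with 12 of 14 lower. Cholangiocyte markers, all 8 tested, summed to 663 to 711 CPM in DMSO, 617 to 657 at 6 h, 760 to 869 at 12 h and 1065 to 1110 CPM at 24 h. Their sum was thus highest at 24 h, when Bcl3 and Nfkbia were above DMSO. The median log2 fold change of the 8 markers at 24 h was -0.14, with 1 called higher and 1 lower. The rise of the sum was therefore not shared by the list as a whole. Lymphocyte markers summed to 39.3 to 49.8 CPM at 6 h and 24.4 to 54.6 CPM at 24 h, with 1 of 7 called lower at 6 h. Of all tested genes, 9.72% were called at 6 h and 13.4% at 24 h against DMSO. The part of these markers in the members' changes was not tested.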

How the data were processed

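The authors deposited 1 table of expected counts per gene, which holds whole numbers for 12 libraries and 53452 genes (53355 with a symbol). Per the submitters' processing notes, FastQC, fastp, Salmon and DESeq2 were used with GRCm38; their roles, their versions and the use of strand are not stated. Gene positions are from GENCODE vM21 and promoter sequences from RefSeq. The main test was edgeR's quasi-likelihood test (version 4.0.16, R 4.3.3) after filterByExpr and TMM scaling. Rounding the counts first altered none of them. A single model with 1 term, the group, was fitted to the 12 libraries (glmQLFit, then glmQLFTest). It kept 16036 genes, at a biological coefficient of variation of 0.0798 and 8 residual degrees of freedom. P-values were adjusted over all tested genes in each comparison. Standard errors came from the F statistic. Within-group library pairs differed by more than sampling noise (chi-square per degree of freedom 4.08 to 16.0). The steps were tested on simulated data. Alternatives were limma 3.58.1, DESeq2 1.42.0, other size factors, no low-count filter, the 6 compared libraries alone, the replicate number as a block and leaving out each library.

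The members and gene lists were chosen with earlier results of these data known. Named genes were all members, the 4 genes of each pathway list with the smallest p in the test among groups and a mean of at least 1 CPM, and the 3 genes most like each of 3 members, with a mean of at least 5 CPM. Stellate markers and markers of other cells near 0 were named as well.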

Additional observations from a re-analysis of the deposited data

Results flagged for a closer look

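The change against DMSO differed between exposure times for several members, as the direct edgeR test between the riociguat groups shows. The DMSO group is shared, and time of addition differs along with exposure. Between 12 h and 6 h the log2 differences were 0.64 for Bcl3, 0.53 for Nfkbia, 0.35 for Nfkbie, 0.27 for Nfkb2, 0.26 for Relb and 0.20 for Nfkb1, all higher at 12 h. Between 24 h and 6 h they were 0.99 for Bcl3, 0.63 for Nfkbia, 0.33 for Nfkbiz, 0.32 for Nfkb1, 0.27 for Nfkbie and 0.21 for Nfkb2, all higher at 24 h. Between 24 h and 12 h the difference was -0.23 for Tnfaip3, lower at 24 h.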

How the results depend on the processing

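Member results and gene counts were recomputed under 7 other settings and without each of the 12 libraries. Of 1320 such values for the members, 1239 kept direction and call, 42 lost a call, 19 gained one and 20 changed sign. The 7 calls at 6 h, Tnfaip3 at 12 h and 24 h and Bcl3 at 24 h against DMSO held throughout. Rela at 24 h against DMSO was lost in 16 settings, Nfkb1 between 6 h and 12 h in 8, Relb in 5 and Nfkbie between 6 h and 24 h in 4. Gained calls were Nfkbiz between 6 h and 12 h in 7 settings, Relb between 6 h and 24 h in 5, Bcl3 between 12 h and 24 h in 4 and Nfkb1 at 24 h against DMSO in 3. Nfkbia at 24 h against DMSO was lost in 5 settings and Tnfaip3 between 12 h and 24 h in 4. Of 34 calls against DMSO for pathway genes named in the text, 25 held throughout; calls of Pdlim2, Cyld, Irak2, Il1rl1 (6 h), Il1r1 (12 h), Tnfrsf12a (12 h), Il6 (6 h) and Bcl2l1 (6 h and 12 h) did not, and none changed sign. The cause was not tested.

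Changes of sign were confined to log2 differences near 0. Leaving out 1 library gave ranges of -0.027 to 0.068 for Rel at 12 h and -0.076 to 0.043 at 6 h against DMSO, -0.033 to 0.085 for Rel between 6 h and 12 h, -0.018 to 0.10 for Nfkbiz at 24 h against DMSO, -0.083 to 0.0066 for Relb between 12 h and 24 h and -0.059 to 0.027 for Rela between 6 h and 24 h. That last value was 0.0017 with RLE factors and 0.0023 with DESeq2 or with the 6 libraries alone.

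Leaving out 1 library gave 510 to 1262 called genes at 12 h against DMSO (907 with all), 955 to 1852 at 6 h (1559), 1395 to 2566 at 24 h (2141), 596 to 1048 between 6 h and 12 h (976), 318 to 551 between 12 h and 24 h (494), 1772 to 2555 between 6 h and 24 h (2451) and 2283 to 3443 for any difference (2928). Without the low-count filter 838 genes were called between 12 h and 24 h.

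Same-numbered replicates did not deviate together: over 18 pairs the correlation was -0.136 to 0.0843, and 6 of 12 libraries correlated best with their own number. With the replicate block, counts of called genes were 793, 1348 and 1944 at 12, 6 and 24 h against DMSO and 2590 for any difference. Depth limits Bcl3, Rel and Nfkbie most, with as few as 217, 229 and 223 counts.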
